A study of Cicer arietinum with 12 samples.

Results

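In leaf RNA of chickpea (Cicer arietinum), 15 genes had reads in every library of one genotype and next to none in any library of the other. A gene was counted as off in a genotype when it lay below 0.5 CPM (a gene's reads over all reads assigned to genes in the library, scaled to a common total) in all 6 libraries of that genotype, and as on when it reached at least 1.5 CPM in all 6. Among 27234 gene features, 5 were on in ICC283 and off in ICC8261, and 10 were on in ICC8261 and off in ICC283. The rule took only features whose identifier starts with LOC (27047 of them), set 2 identifiers aside and made no use of the treatment labels. The genes were chosen by their CPM in these same libraries, so the genotype difference is described here without a test.

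ICC283 is labelled as drought sensitive and ICC8261 as drought tolerant. Each was grown in pots in a glasshouse, well-watered at 80% of field capacity (the water the soil holds after draining) or drought-stressed at 20%, and leaves were taken at a stage labelled shoot apical meristem. RNA from 12 samples was sequenced, 3 libraries in each of the 4 groups made by genotype and treatment. For each genotype 6 pots are described, but no label ties a library to a pot. The p-values therefore speak only of variation among the libraries, which may be technical. Gene reads totalled 8910704 to 12192098 per library, so the off threshold stood for 4.46 to 6.1 reads and the on threshold for 13.4 to 18.3 reads. Of 14 leaf, 7 meristem and 4 root marker symbols looked up, only the plastid gene ndhA was matched, at 8326 to 17514 CPM. The labelled tissue was therefore checked by this 1 plastid gene alone.

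Treatment differed between the deposited sources for 4 libraries, while genotype was the same in both for all 12. The ICC283 library filed as well-watered 3 stands as drought in the authors' tables, and the one filed as drought 3 stands as well-watered. The ICC8261 library filed as well-watered 1 likewise stands as drought, and the one filed as drought 2 as well-watered. Drought changes below come from the 8 libraries of agreed treatment, 2 in each group, and values with the tables' treatment of all 12 libraries are set beside them.

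As background, accessions of a crop are known to differ both in gene content, with a gene present in one genome and missing from another, and in how genes that they share are transcribed. RNA levels alone do not tell these apart. Long non-coding RNAs are transcripts without a protein product, and pseudogenes are decayed gene copies, some of which are still transcribed. In these bulk samples fewer cells of a type and less RNA per cell cannot be told apart. The counts behind on and off hold uniquely assigned reads only, since 44.1% to 53.5% of all that was tallied in a count file had aligned to several places and entered no gene.

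Of the 15 genes, 13 were found in the RefSeq gene table of the assembly Cicar.CDCFrontier_v2.0, and none of the 13 had a symbol beyond its LOC identifier. That table gives no product names, so no function is given for them. It classes 9 as protein-coding, 3 as long non-coding RNA and 1 as a pseudogene. The non-coding class made up 3 of the 13 (23.1%), against 3.07% of the 24266 LOC features found in the table. These features include genes of any level, and the difference was not tested. Of the genes on in ICC283, LOC101491538 is non-coding, LOC101513277 is a pseudogene, and LOC101497567 and LOC101510537 are protein-coding. Of those on in ICC8261, LOC101496726 and LOC105851839 are non-coding and 7 are protein-coding. Among these 7, LOC101501783 has 22 listed transcripts, LOC105852755 has 8 and LOC101488602 has 3, while the others have 1 each. LOC101510585 and LOC101493008 were not found in the table.

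**Figure D1:**
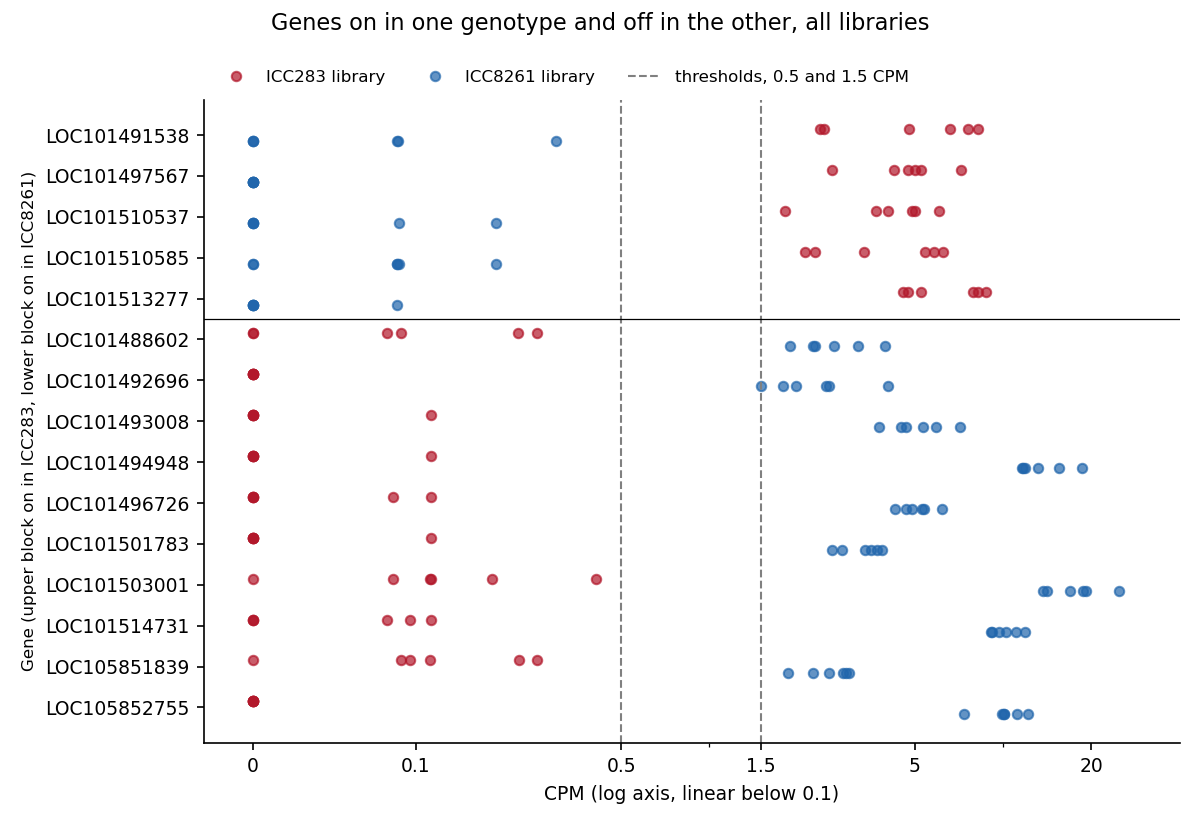
CPM (log axis, linear below 0.1) of the 15 genes in all 12 libraries, 1 point per library, red for ICC283 and blue for ICC8261; dashed lines mark 0.5 and 1.5 CPM. Libraries of the off genotype reach at most 0.41 CPM, and those of the on genotype lie between 1.503 and 24.8 CPM.

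In the off genotype most of these genes showed a few reads and 3 showed none. LOC101497567, on in ICC283, had 0 reads in all 6 ICC8261 libraries, and LOC101492696 and LOC105852755, on in ICC8261, had 0 in all 6 ICC283 libraries. Over 6 libraries together, 3 reads were taken as the floor behind a count of 0. Against that floor LOC101497567 was at least 104-fold higher in ICC283, and LOC101492696 and LOC105852755 at least 50.5-fold and 213-fold higher in ICC8261. These bounds cover counting error only, and the genes were chosen by these same values. The other 12 genes had between 1 and 10 reads over the 6 libraries of the off genotype, against 168 to 1178 reads in the on genotype. LOC101503001 held the 10, with 5 of them in 1 library, the one filed as ICC283 drought 3.

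Reads of the 10 ICC8261 genes were few in every ICC283 library. In the library filed as well-watered 3, 7 of the 10 ICC8261 genes had at least 1 read (8 reads in all, 0.898 CPM summed). The other 5 ICC283 libraries had reads in 2 to 4 of the 10 genes, with sums of 0.192 to 0.689 CPM. Among them the one filed as drought 2 also held 8 reads, and the one filed as drought 3 held 7. Whether the libraries differed in these reads was not tested. In the ICC8261 libraries, 1 or 2 of the 5 ICC283 genes had reads, with sums of 0.0889 to 0.376 CPM.

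Genes near the thresholds showed how sharp the rule was. On the ICC283 side, LOC101510537 entered with a lowest on value of 1.80 CPM, followed by LOC101510585 (2.12 CPM) and LOC101491538 (2.38 CPM). LOC101492168, LOC101496506 and LOC101494062 missed with lowest values of 1.46, 1.31 and 1.23 CPM. On the ICC8261 side, LOC101492696 entered with 1.503 CPM followed by LOC105851839 (1.85 CPM) and LOC101488602 (1.89 CPM). LOC101510924 missed with 1.41 CPM and 0 reads in ICC283, and LOC105851267 and LOC101511212 missed with 0.997 and 0.989 CPM. The highest off value inside was 0.41 CPM, in LOC101503001, and LOC101506216, LOC101513191 and LOC101508367 missed with off values of 0.67, 0.962 and 1.01 CPM. On the ICC283 side the highest off value inside was 0.299 CPM, in LOC101491538, and LOC101511831, LOC101495268 and LOC101491454 missed with 0.706, 0.898 and 1.097 CPM.

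The 5 genes on in ICC283 differed among the 6 ICC283 libraries by 1.91-fold to 3.44-fold from lowest to highest. LOC101491538 had a lowest value of 2.38, a median of 5.71 and a highest value of 8.19 CPM. LOC101513277 ran from 4.58 over 6.57 to 8.75 CPM, and LOC101510585 from 2.12 over 4.40 to 6.25 CPM. LOC101497567 ran from 2.62 over 4.87 to 7.18 CPM and LOC101510537 from 1.80 over 4.48 to 6.06 CPM. CPM is not corrected for transcript length, so levels are not ranked between genes.

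The rule did not use the treatment labels, so drought within ICC283 could be tested. It did ask for 1.5 CPM in all 6 libraries of the on genotype. A gene that fell below this in either treatment could therefore not be among the members, in ICC283 or in ICC8261. The shares of all genes tested, given beside the members here and below, were not limited in this way and include genes of higher level. In the 8 agreed libraries edgeR's quasi-likelihood test called 0 of the 5 genes under drought at an adjusted p of 0.05, against 38.2% of the 18750 genes tested (17.1% higher). None had an unadjusted p under 0.05, and DESeq2 also called 0. The median log2 fold change of the 5 was 0.70, beside -0.03 over all genes tested.

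In CPM, both agreed drought libraries lay above both agreed well-watered ones for 3 of the 5 genes, the pseudogene LOC101513277, the non-coding LOC101491538 and LOC101510585. The same held for 38.8% of all genes tested, and the reverse for 0 of the 5 and 33.3% of all genes, so with 2 libraries a group such a gap is common. LOC101491538 stood at 2.46 and 4.80 CPM in the agreed well-watered libraries and at 7.60 and 8.19 CPM in the agreed drought libraries. The groups did not overlap, and the log2 fold change was 1.06 ± 0.49 (SE; 95% interval -0.03 to 2.15; edgeR adjusted p = 0.11). The library filed as drought 3, well-watered in the tables, had 2.38 CPM, and the one filed as well-watered 3, drought in the tables, had 6.62 CPM. With the tables' treatment all 3 drought libraries therefore lay above all 3 well-watered ones.

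LOC101510585 had 3.36 and 2.12 CPM in the agreed well-watered libraries and 6.25 and 5.43 CPM in the agreed drought libraries, again without overlap. Its log2 fold change was 0.98 ± 0.49 (95% interval -0.10 to 2.07; edgeR adjusted p = 0.14). LOC101513277 had 4.73 and 4.58 CPM against 7.89 and 8.19 CPM, a log2 fold change of 0.70 ± 0.34 (95% interval -0.07 to 1.48; edgeR adjusted p = 0.13). The libraries of conflicting treatment had 2.30 CPM (tables: well-watered) and 5.84 CPM (tables: drought) for LOC101510585, and 5.25 and 8.75 CPM for LOC101513277. Under the tables' treatment each gene again had all 3 drought libraries on top.

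When all 12 libraries took the tables' treatment, 2 of the 5 genes rose under drought in ICC283 by edgeR's quasi-likelihood test, where 36.8% of 18592 genes were called and 16.6% were called higher. LOC101491538 rose by 1.14 ± 0.40 (adjusted p = 0.041) and LOC101510585 by 1.05 ± 0.37 (adjusted p = 0.039). LOC101513277 had 0.66 ± 0.28 (adjusted p = 0.081). The authors' deposited table for ICC283 gives adjusted p-values under 0.05 for the same 2 genes, with log2 fold changes of 1.06 and 0.97 (adjusted p = 0.016 and 0.028). Such values were given to 25.4% of the genes in the authors' deposited table. These fits share reads, so they are not independent of each other. Complete separation with all 3 drought libraries on top was seen for 3 of the 5 genes and for 28.4% of all genes tested. The reverse order was seen for 0 of the 5, against 18% of all genes. Non-unique alignments made up 53.4% to 53.5% of the agreed ICC283 drought libraries and 48.1% to 50.6% of the well-watered ones, and their part in these values was not tested.

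The 2 calls depend on the treatment of the conflicting libraries and on single libraries. With the count-file labels of all 12 libraries, edgeR called 0 of the 5 genes and 0 of all 18592 genes, and LOC101491538 and LOC101510585 had log2 fold changes of 0.43 ± 0.65 and 0.33 ± 0.55. In the tables' treatment and numbering, 1 call was left without ICC283 well-watered library 1, well-watered library 2 or drought library 3. No call was left without ICC283 drought library 1, drought library 2 or well-watered library 3.

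The protein-coding LOC101497567 and LOC101510537 showed no such split. LOC101497567 had 5.27 and 4.24 CPM in the agreed well-watered and 5.004 and 4.74 CPM in the agreed drought libraries, and its groups overlapped. Its log2 fold change was -0.06 ± 0.37 (95% interval -0.91 to 0.80; edgeR adjusted p = 0.92). LOC101510537 had 5.001 and 3.68 against 4.91 and 4.05 CPM, also overlapping, with -0.05 ± 0.45 (95% interval -1.08 to 0.98; edgeR adjusted p = 0.94). Both were lowest in the library filed as drought 3, at 2.62 and 1.80 CPM, and highest in the one filed as well-watered 3, at 7.18 and 6.06 CPM. With the tables' treatment their log2 fold changes were 0.36 ± 0.35 and 0.40 ± 0.45. Expressed as folds, the 8-library intervals ran from 0.531 to 1.74 and from 0.473 to 1.97, so equal expression is not shown.

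**Figure D2:**
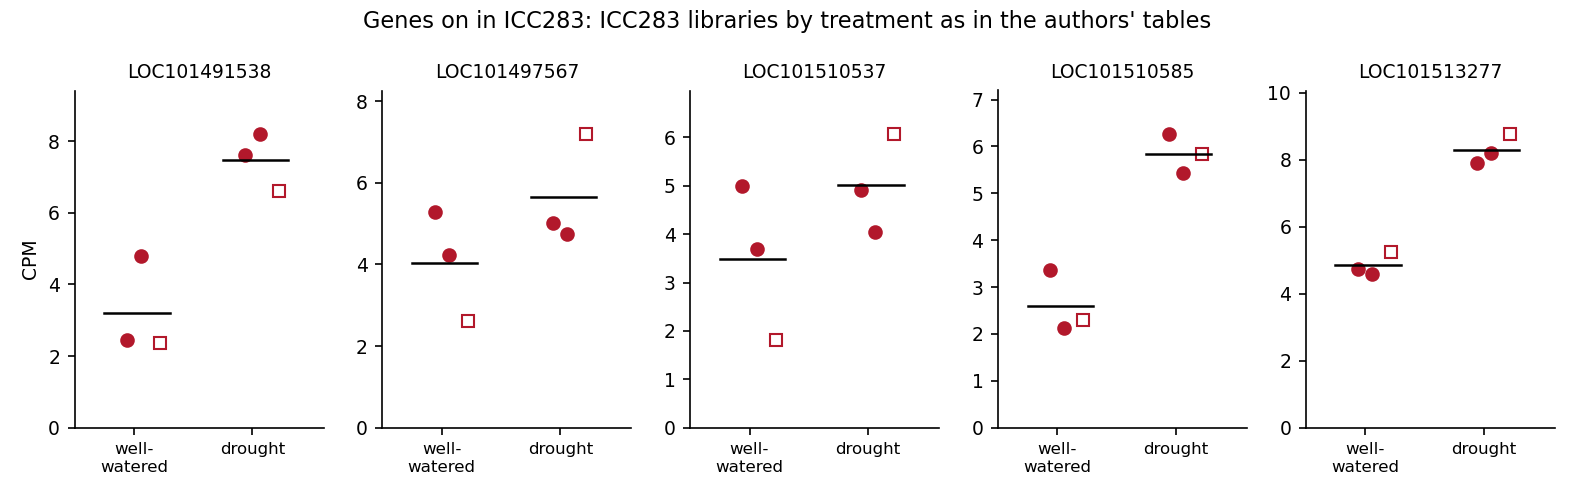
CPM of the 5 genes on in ICC283 in the 6 ICC283 libraries, placed by the treatment given in the authors' tables; filled circles are libraries of agreed treatment, open squares libraries filed under the other treatment, and black lines the means of 3. LOC101491538, LOC101510585 and LOC101513277 have all drought points above all well-watered points, and the other two overlap.

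The 10 genes on in ICC8261 differed among the 6 ICC8261 libraries by 1.31-fold to 2.70-fold from lowest to highest. The protein-coding LOC101514731 was the steadiest of the 10 by this measure, with 9.09, 9.96 and 11.9 CPM as lowest, median and highest values. The non-coding LOC101496726 ran from 4.29 over 5.09 to 6.20 CPM. LOC101492696 ran from 1.503 over 2.24 to 4.06 CPM, the widest range of the 10. LOC101503001 ran from 13.7 over 17.8 to 24.8 CPM, LOC101494948 from 11.6 over 12.5 to 18.6 CPM and LOC105852755 from 7.37 over 10.1 to 12.2 CPM. The genes LOC101493008, LOC101501783, LOC105851839 and LOC101488602, had medians of 5.01, 3.47, 2.70 and 2.47 CPM and ranges of 1.89-fold, 1.49-fold, 1.61-fold and 2.103-fold. The 2 libraries of conflicting treatment held many of the extremes. The library filed as well-watered 1 was highest for 5 of the 10 genes, and the one filed as drought 2 was lowest for 4.

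None of these 10 genes was called under drought in ICC8261 by edgeR's quasi-likelihood test in the agreed libraries, where 15.5% of the 18750 genes tested were called (9.09% higher). None had an unadjusted p under 0.05, DESeq2 called 0, and so did edgeR with the tables' treatment (background 18.7%, with 9.84% higher). The authors' deposited table gives 0 of the 10 an adjusted p under 0.05, against 24.2% of its genes. In the agreed libraries the log2 fold changes lay between -0.16 and 0.35 with SEs of 0.26 to 0.55, and the median was 0.13 beside -0.01 over all genes. With the tables' treatment they lay between -0.23 and 0.46, and for 0 of the 10 genes were the 3 drought libraries all above or all below the 3 well-watered ones. Over all genes these shares were 15.7% and 26.6%. In the agreed libraries alone the groups did not overlap in plain CPM in 6 of the 10 genes. Both drought libraries were above in LOC101514731 and LOC105851839 (18.8% of all genes), and below in LOC101488602, LOC101493008, LOC101494948 and LOC101501783 (47.1% of all genes). After the scaling of the fit, the log2 fold changes were 0.354 and 0.355 for the former. For the latter they were -0.13, -0.06, -0.16 and 0.006.

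The bounds on a drought change were narrowest for LOC105852755, LOC101503001 and LOC101494948. LOC105852755 had 10.1 and 11.2 CPM in the agreed well-watered and 10.1 and 9.96 CPM in the agreed drought libraries, with overlap, a log2 fold change of 0.14 ± 0.26 and a 95% interval from -0.46 to 0.74. LOC101503001 had 14.1 and 16.9 against 18.75 and 13.7 CPM, with overlap, and 0.30 ± 0.26 (95% interval -0.28 to 0.88). LOC101494948 had 18.6 and 11.9 against 11.7 and 11.6 CPM, which did not overlap, and -0.16 ± 0.27 (95% interval -0.79 to 0.48). A 2-fold change in either direction lies outside these 3 intervals and also outside those of LOC101493008 (-0.87 to 0.75) and LOC101501783 (-0.98 to 0.99). The other five intervals reach a 2-fold change on at least 1 side, the widest being those of LOC101492696 (-1.15 to 1.39) and LOC101488602 (-1.34 to 1.07).

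Fitted changes and CPM means of the agreed libraries differ in sign for 3 of these 10 genes, and for 2 of the 5 genes on in ICC283. The latter are LOC101497567, with means of 4.76 CPM well-watered and 4.87 CPM under drought, and LOC101510537, with 4.34 and 4.48 CPM, both with fitted changes just below 0. LOC101492696, for example, had 2.56 and 1.78 CPM in the agreed well-watered and 2.49 and 1.503 CPM in the agreed drought libraries but a log2 fold change of 0.12 ± 0.55. The TMM scaling of the fit shifts every drought change in ICC8261 by 0.23 on the log2 scale against plain CPM, and in ICC283 by -0.08. The single most abundant gene took between 6.34% and 18.4% of the reads of a library. Whether drought acted differently on the genes on in ICC283 and those on in ICC8261 was not tested.

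**Figure D3:**
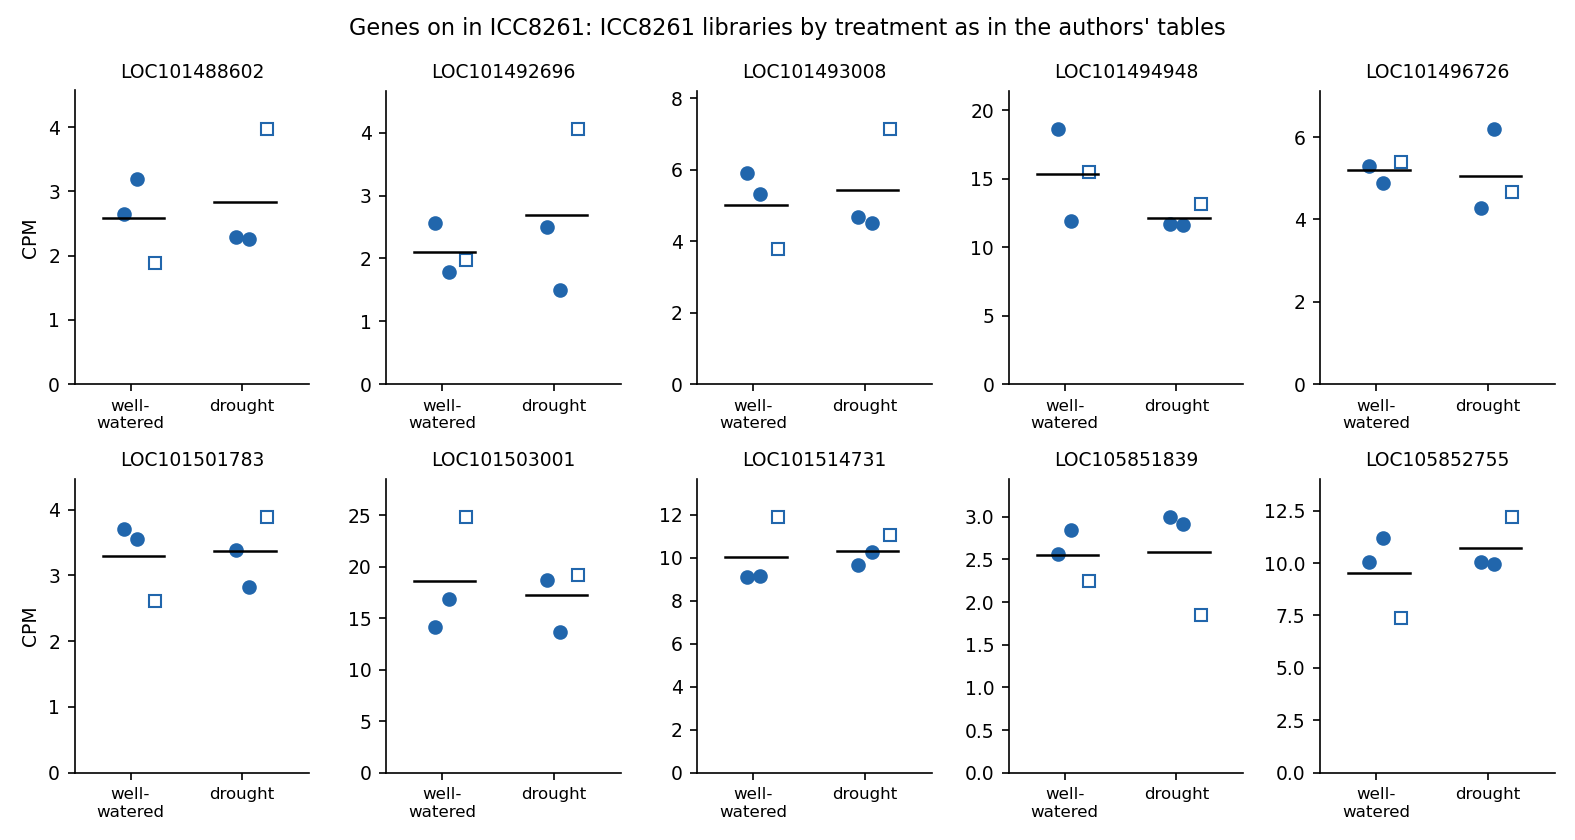
CPM of the 10 genes on in ICC8261 in the 6 ICC8261 libraries, placed by the treatment given in the authors' tables; filled circles are libraries of agreed treatment, open squares libraries filed under the other treatment, and black lines the means of 3. The treatments overlap in all 10 genes.

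**Figure D4:**
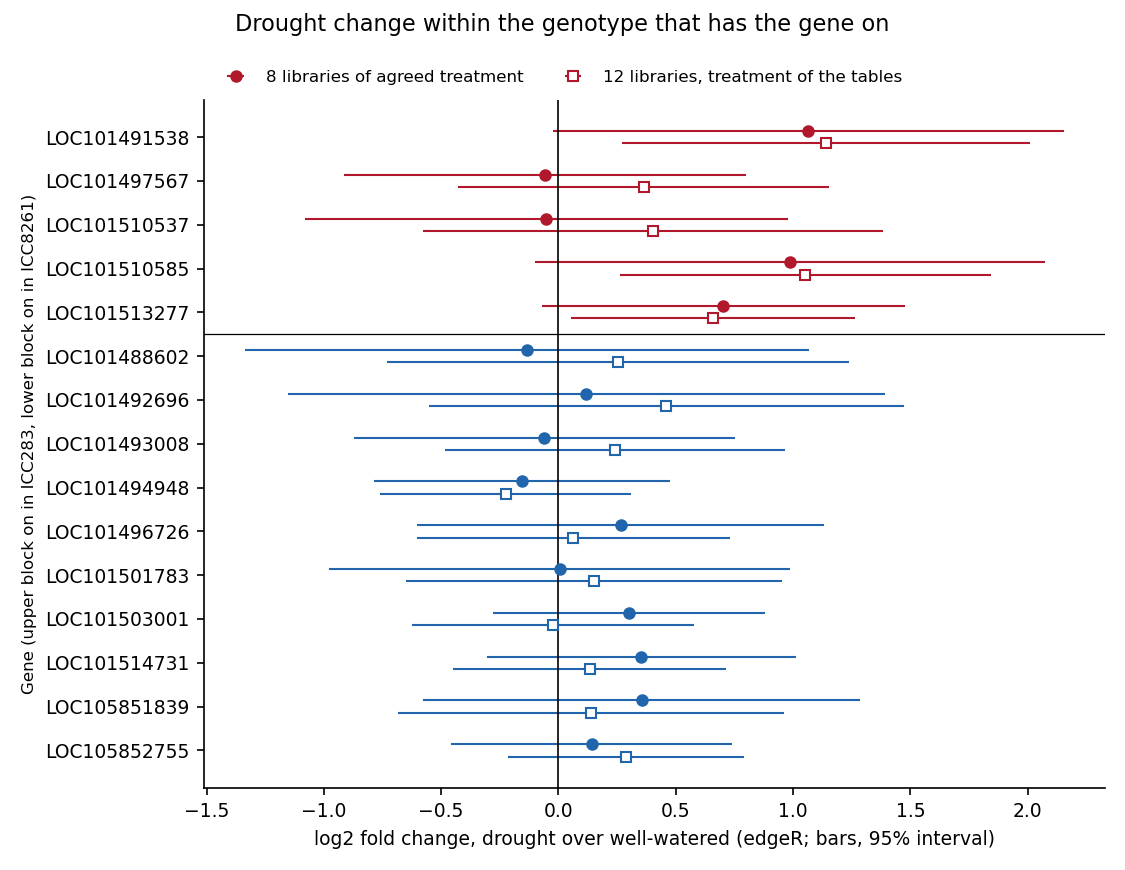
log2 fold change of drought over well-watered in the genotype that has the gene on, with 95% intervals, from edgeR on the 8 agreed libraries (circles) and on all 12 with the tables' treatment (squares). For LOC101491538, LOC101510585 and LOC101513277 the 12-library intervals lie above 0 before adjustment, and all intervals of the ICC8261 genes cross 0.

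The genes beside the 13 placed ones were described as well. The nearest measured gene on either side was taken from the reference gene order, which gave 26 neighbours, none of them among the 15. Only 15 of all 27234 features met the rule, so finding none among 26 says little. In some cases 1 to 3 genes that were not measured lay between a gene and its neighbour. Of the 26 neighbours, 12 (46.2%) had medians under 0.5 CPM in both genotypes, against 24% of the 24445 features found in the table. Pseudogenes were 5 of the 26, against 3.75% of the 24266 LOC features found there. All 5 lay among the 12, as did the tRNA genes TRNAI-AAU and TRNAE-UUC. The comparison was not matched for gene class. At least 1 such neighbour under 0.5 CPM stood beside 11 of the 13 genes. The matching share over all genes was not determined. The files name no build, so the gene order may differ from that of the annotation used for counting.

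The genotype difference of the neighbours, which the rule did not use, was tested in 12 with enough reads. The test was added after their levels had been seen. edgeR called 2 of the 12 (16.7%) in the agreed libraries, where 33% of all genes tested differed between the genotypes. With the tables' treatment 2 of 11 were called (background 20.8%), and with the count-file labels 1 (background 3.96%). The non-coding LOC101492068, beside the non-coding LOC105851839, was higher in ICC8261 by 1.48 ± 0.39 (adjusted p = 0.018), the same direction as its neighbour. It had a median of 2.61 CPM in ICC8261 and 0.62 CPM in ICC283, and the genotypes overlapped, since 1 ICC283 drought library reached 2.21 CPM. LOC101503324, beside LOC101503001, was higher in ICC8261 by 0.43 ± 0.12 (adjusted p = 0.025), at medians of 83 and 58.8 CPM. Both calls were lost without ICC283 well-watered library 1 and without ICC8261 well-watered library 3, and 1 was lost without ICC283 drought library 2 or ICC8261 well-watered library 2.

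The other ten tested neighbours did not pass, with adjusted p-values of 0.056 to 0.995 in edgeR. LOC101494274, beside LOC101497567, had medians of 144.6 CPM in ICC283 and 201 CPM in ICC8261, and its libraries did not overlap between the genotypes (0.28 ± 0.10, edgeR adjusted p = 0.056). LOC101502211, beside LOC101501783, had medians of 85.3 CPM in ICC283 and 92.1 CPM in ICC8261 (log2 fold change after scaling -0.12 ± 0.09, edgeR adjusted p = 0.31). LOC101495276, beside LOC101494948, had 166 and 184 CPM (0.18 ± 0.10, edgeR adjusted p = 0.19). LOC101509999, beside LOC101510537, had 9.47 and 10.2 CPM (-0.21 ± 0.16, edgeR adjusted p = 0.33). All 3 of these overlapped between the genotypes, which does not show that their levels were equal.

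**Figure D5:**
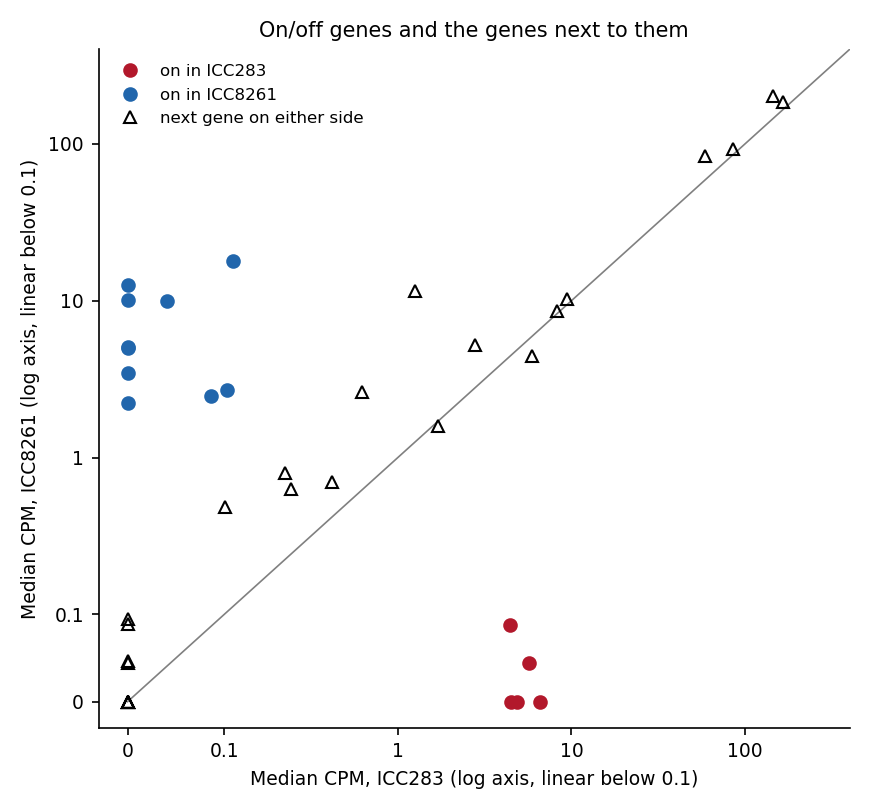
Median CPM over 6 libraries in ICC283 (x) and ICC8261 (y), both on log axes that are linear below 0.1; red and blue circles are the genes on in ICC283 and in ICC8261, triangles the 26 measured neighbours, and the grey line marks equal values. Of the 26 triangles 12 lie under 0.5 CPM on both axes; LOC101497263 (1.26 and 11.5 CPM) and LOC101492068 (0.62 and 2.61 CPM) lie above the line.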

How the data were processed

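Gene expression was measured by RNA sequencing in 12 libraries, grouped by the labels' titles. The authors deposited whole-number counts per gene and library, made with Trimmomatic, TopHat2 2.1.1, Cufflinks 2.0.2 and HTSeq, per the submitters' processing notes. No source used here names a genome build, an annotation or a strand setting. The 5 HTSeq summary lines were not genes and entered neither library sizes nor tests; 16.6% to 21.4% of each file's total fell on no feature and 0.179% to 0.388% was ambiguous.

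The authors also deposited DESeq2 tables with log2 fold changes, adjusted p-values and normalized counts, a signal of counts over a size factor per library, per the file headers. Divided by its smallest value above 0, each column gave whole numbers within a tolerance of 0.02 (relaxed in proportion for large values) and equalled exactly 1 count file at 27233 or 27234 genes, which gave the treatment in the tables. The next most alike file was equal at no more than 24.1%.

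The edgeR package 4.0.16 (R 4.3.3) tested the counts, using filterByExpr (minimum count 10, minimum total 15), TMM scaling, 4 group means, robust glmQLFit, two-sided glmQLFTest, and Benjamini-Hochberg adjustment over all genes tested. All 15 genes passed the filter. The SE is the absolute log2 fold change over the square root of F. The 95% intervals use the fit's total degrees of freedom and are not adjusted. Other scalings, filters, labels, a replicate term, DESeq2 1.42.0 and omitted libraries were alternatives. Only the code of the edgeR drought fit in ICC283 was tested on simulated data.

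The genes, the marker lists and the choice of the 8 agreed libraries were made with earlier results of these data known. The rule for named genes (up to 10 a direction by median CPM, and 3 features on either side of each threshold) takes in all 15. Their neighbours were named where called, where transcribed on both sides, or after their values were seen. Protein motifs and near copies were planned but not analysed here, for lack of sequences.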

Additional observations from a re-analysis of the deposited data

How the results depend on the processing

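The count of genes on in ICC283 was 5 and that of genes on in ICC8261 was 10. An on threshold of 3 CPM gave 1 and 6, and asking for 0 reads in the off genotype gave 1 and 2. The 8 agreed libraries alone gave 10 and 11, which include all 5 and all 10. Leaving out 1 library gave between 5 and 8 for ICC283 and between 10 and 11 for ICC8261; the 8 came without the library filed as ICC283 drought 3. TMM-scaled library sizes and DESeq2 size factors each gave 6 and 9, and an off threshold of 0.25 CPM gave 4 and 7.

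Drought calls among the ICC283 genes were 0 in the 8 libraries, 2 with the tables' treatment, 1 with the ICC283 libraries alone, between 0 and 1 with 1 agreed library left out, and between 0 and 1 with 1 ICC283 library left out under the tables' treatment. The call without ICC8261 drought library 1 or 3 was LOC101491538 (1.07 and 1.09, adjusted p = 0.047 and 0.043). Calls among the ICC8261 genes were 0 in all alternatives run. With the count-file labels edgeR called 0 of all 18592 genes in ICC8261, so that alternative says nothing about the members. Neighbours called for genotype were 2, against 1 with the count-file labels, 4 with upper-quartile scaling and 0 to 3 with 1 library left out.

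Of 180 drought values of single genes under alternatives, 26 changed sign and 4 passed the threshold; none of the 26 was called. With the tables' treatment LOC101497567, LOC101510537, LOC101488602, LOC101493008 and LOC101503001 had 0.36, 0.40, 0.25, 0.24 and -0.024. With the count-file labels LOC101492696, LOC101494948, LOC101501783 and LOC105852755 had -0.31, 0.017, -0.16 and -0.11. DESeq2 gave LOC101501783 a value of -0.015. With 1 library left out, LOC101497567 ran from -0.26 to 0.18, LOC101510537 from -0.30 to 0.26, LOC101488602 from -0.30 to 0.011, LOC101492696 from -0.35 to 0.48, LOC101493008 from -0.14 to 0.020, LOC101494948 from -0.44 to 0.16 and LOC101501783 from -0.19 to 0.18. Their cause was not tested.

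Whether the replicate numbers pair the libraries could not be decided. Deviations of same-numbered libraries correlated by -0.12, -0.56 and -0.60 in ICC283 and by 0.69, 0.71 and -0.15 in ICC8261. They were taken from group means under the count-file labels, and each such group holds a library of conflicting treatment. A block for replicate number left 0 of the members called in either genotype and 2 neighbours, and LOC101488602, LOC101492696, LOC101494948, LOC101501783, LOC101503001 and LOC105852755 turned to 0.091, -0.076, 0.12, -0.17, -0.088 and -0.011.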

Other observations

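These values were singled out after the data had been seen. LOC101497263, a protein-coding gene next to LOC105852755, was itself on or off between libraries of the same genotype. It had 0 reads in both agreed drought libraries of ICC283 and in ICC8261 drought library 1, but 14.2 CPM in ICC8261 drought library 3. The agreed well-watered libraries had 0.27 and 2.68 CPM in ICC283 and 19.2 and 15.3 CPM in ICC8261. The libraries filed as well-watered and listed as drought in the tables had 2.24 CPM in ICC283 and 2.74 CPM in ICC8261, and those filed as drought and listed as well-watered had 7.46 and 8.72 CPM. The spread within groups was wide. In the agreed libraries its genotype difference of 6.26 ± 2.16 on the log2 scale did not pass edgeR's quasi-likelihood test (adjusted p = 0.094). The size of that difference was not stable. With all 12 libraries edgeR gave 2.38 ± 0.96 under the tables' treatment (adjusted p = 0.10). Under the count-file labels it gave 2.045 ± 1.17 (adjusted p = 0.35).

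Near LOC101491538, which is on in ICC283, a second non-coding gene showed the opposite pattern. LOC101491329 is the second measured gene after it in the reference order. How often genes at this distance from a member show such a pattern was not determined. It had 0 reads in all 6 ICC283 libraries and between 0.70 and 1.89 CPM (7 to 21 reads) in all 6 ICC8261 libraries, below the on threshold of 1.5 CPM in 4 of them.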
